A study of Mus musculus with 12 samples.

Results

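G1ME cells labelled as carrying a GATA1 construct were compared between 18 h and 42 h after transduction. These are 6 of the 12 arrays of the study, taken by their titles, with 3 arrays at each time, lettered A, B and C, and all annotated genes were examined. G1ME is a murine cell line of megakaryocyte-erythrocyte progenitors in which Gata1 is absent per the labels. All 12 arrays therefore share the loss of the endogenous gene. The other 6 arrays carry the empty MIGR1-GFP control vector and were sampled at the same 2 times. Green fluorescent protein marks a transduced cell, and cells positive for it were isolated by FACS before total RNA was hybridised to Affymetrix arrays. The triplicates are called biological in the design text, but nothing ties a letter to a culture or a day, and all arrays come from 1 cell line. The comparison asks what changes between an earlier and a later time in progenitors to which GATA1 was given back.

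GATA1 is a zinc finger transcription factor that binds the DNA letters GATA and works with the cofactor FOG1 (Zfpm1) and with a complex of TAL1, LMO2 and LDB1. In red cell formation it takes over sites that GATA2 occupies in progenitors, and Gata2, Kit and other progenitor genes are shut off while globin, heme and membrane genes are turned on. The same factor drives megakaryocytes, the precursors of platelets. GATA1 and PU.1 (Spi1), the factor of the myeloid line, restrain each other.

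Promoters of 6 genes are shown first because the results turn on these genes and each holds a GATA motif within the 250 bases before its start. They were chosen after their values were seen. Each run is 300 bases from RefSeq, assembly GRCm38.p6, 250 before and 50 from the annotated start on, read 5′ to 3′ on the gene's own strand. The motif searched is AGATAA, in which the opening letter may also be T and the closing letter may also be G, on either strand, and capitals mark each match. They are Hba-x at chr11:32276350-32276649 on the plus strand, Hbb-y at chr7:103853158-103853457 on the minus strand, Alas2 at chrX:150547167-150547466 (plus), Klf1 at chr8:84901732-84902031 (plus), Rhag at chr17:40810899-40811198 (plus) and Cpa3 at chr3:20242132-20242431 (minus).
Hba-x: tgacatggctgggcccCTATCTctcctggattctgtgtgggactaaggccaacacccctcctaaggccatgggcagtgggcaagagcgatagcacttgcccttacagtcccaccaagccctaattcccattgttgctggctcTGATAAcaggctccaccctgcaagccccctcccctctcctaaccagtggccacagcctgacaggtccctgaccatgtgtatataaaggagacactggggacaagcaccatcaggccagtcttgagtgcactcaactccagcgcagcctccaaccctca
Hbb-y: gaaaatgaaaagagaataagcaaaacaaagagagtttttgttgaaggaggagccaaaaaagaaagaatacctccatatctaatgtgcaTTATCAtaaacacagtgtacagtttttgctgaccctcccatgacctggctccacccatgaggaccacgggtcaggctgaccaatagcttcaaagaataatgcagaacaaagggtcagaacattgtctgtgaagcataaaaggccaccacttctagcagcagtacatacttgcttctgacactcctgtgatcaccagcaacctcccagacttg
Alas2: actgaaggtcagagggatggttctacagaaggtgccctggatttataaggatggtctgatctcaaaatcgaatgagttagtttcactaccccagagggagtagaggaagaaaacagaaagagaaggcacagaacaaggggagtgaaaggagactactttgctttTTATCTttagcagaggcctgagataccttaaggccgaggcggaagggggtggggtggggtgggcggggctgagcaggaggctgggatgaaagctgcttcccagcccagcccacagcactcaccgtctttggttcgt
Klf1: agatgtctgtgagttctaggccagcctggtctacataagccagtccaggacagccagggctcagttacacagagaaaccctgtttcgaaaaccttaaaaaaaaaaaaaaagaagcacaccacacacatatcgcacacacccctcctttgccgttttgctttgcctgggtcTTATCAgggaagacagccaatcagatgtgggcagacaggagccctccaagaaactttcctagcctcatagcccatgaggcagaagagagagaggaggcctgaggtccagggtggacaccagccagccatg
Rhag: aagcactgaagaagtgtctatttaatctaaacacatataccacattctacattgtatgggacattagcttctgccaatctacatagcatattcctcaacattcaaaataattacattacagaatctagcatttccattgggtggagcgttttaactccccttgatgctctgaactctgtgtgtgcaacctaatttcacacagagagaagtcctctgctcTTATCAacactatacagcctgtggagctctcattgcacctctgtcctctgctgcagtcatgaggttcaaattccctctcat
Cpa3: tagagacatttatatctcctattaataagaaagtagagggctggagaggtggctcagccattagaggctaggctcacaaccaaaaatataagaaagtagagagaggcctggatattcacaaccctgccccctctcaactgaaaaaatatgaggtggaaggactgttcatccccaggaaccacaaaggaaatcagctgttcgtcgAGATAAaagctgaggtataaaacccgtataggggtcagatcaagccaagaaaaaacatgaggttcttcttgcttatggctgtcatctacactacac

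The matches begin 234 and 108 bases before the start of Hba-x, 162 before Hbb-y, 86 before Alas2, 80 before Klf1, 31 before Rhag and 46 before Cpa3. Of these genes 5 rose from 18 h to 42 h and Cpa3 fell. Other genes were searched and are not shown. Tspan33, Blvrb, Gata2, Fcgr3 and Kit held no match in the window, Add2 held a match before its start and Slc38a5 only after its start. Among the 98 genes that rose at least 2-fold and have a promoter in the table, 30 (30.6%) held such a match. The share was 21.2% (34 of 160) among genes that fell at least 2-fold, 19.4% (1715 of 8824) among all tested genes and 30.2% (8166 of 27025) among all promoters of the table. Among all genes that rose it was 19.9%, and among all that fell 21%. The bare letters GATA stood on either strand in 59.2% of the promoters of genes that rose at least 2-fold and in 45.4% of those of all tested genes. That share was 45% among genes that fell at least 2-fold, 45.3% among all that rose and 58.3% among all promoters of the table. A match describes the letters in this window and is not a measured binding site.

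The deposited values are linear intensities, the brightness of a probe set, and no count or detection call comes with them. Levels below are such intensities, given as mean ± SD over 3 arrays, and a level of 1 gene is not set against that of another because probe sets differ in brightness. A change is the 42 h mean minus the 18 h mean of log2(intensity + 16), with its SE, so 1 unit is a doubling of the shifted value. The added 16 understates the change of dim genes, and for a gene near the lowest readable level the size of the change depends on that number. Each gene is represented by its brightest probe set, and 10759 of 18193 genes were bright enough to be tested. The test was limma's moderated test, two-sided, over all 12 arrays in 4 groups, with p-values adjusted over the 10759 genes by the Benjamini-Hochberg method. "Rose", "fell" and "called" are used for an adjusted p under 0.05.

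Array medians lay between 8.05 and 8.29, and 29.2% to 29.7% of probe sets read above 100. On the GATA1-labelled 42 h array A, the log2 difference between the 3′ and 5′ control probe sets of actin was 0.80, against 0.38 to 0.55 on the other 11 arrays, a measure of how intact the RNA was. Without that array 1436 genes were called in place of 1574, and 1207 of these were the same. The Gata1 probe set read 2311, 2257 and 2435 on the GATA1-labelled arrays at 18 h and 2418, 1714 and 1999 at 42 h. On the vector-labelled arrays it read 2815, 2864 and 3329 at 18 h and 3088, 3053 and 3268 at 42 h. It was thus no brighter on the arrays labelled GATA1. No source used here places this probe set inside or outside the construct or the deletion, and the labels cannot be checked with it. Progenitor and megakaryocyte markers differed in brightness. Itga2b (2500 to 3990) and Pf4 (6603 to 19755) were bright on all 12 arrays, Kit was bright on the vector-labelled arrays (283 to 731) and lower on the GATA1-labelled ones (40.4 to 109), and Vwf (5.26 to 5.52) and Slc6a4 (4.33 to 5.28) stood at the bottom of the scale on the vector-labelled arrays.

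Between 18 h and 42 h many red cell genes rose in the GATA1-labelled cells, and many genes of mast cells, myeloid cells and progenitors fell. Of the 10759 genes tested 1574 were called (14.6%), of which 723 rose (6.72%) and 851 fell (7.91%). Changes of at least 2-fold were seen in 323 genes (3%), with 118 higher (1.1%) and 205 lower (1.91%). The median change over all tested genes was 0.0013. The arrays of the 2 times did not overlap for 3385 genes (31.5%), against 1106 (10.3%) in vector-labelled cells. Among the 1574 called genes they did not overlap for 1569. A lack of overlap, where given below for a called gene, therefore describes its arrays and adds no separate support to the call. The smallest called change was 0.14 and the largest 6.08. The count of rises was 471 without the 18 h array C. Total called genes ranged from 1057 to 1598 when any 1 of the 12 arrays was left out. Of the tested genes 31 passed the filter on dim genes through the GATA1-labelled 42 h arrays alone, so that they could enter the test only by being brighter there, and 28 of them rose. In the gene lists these are Hba-x, Hbb-b2, Alas2, Ermap, Slc6a4 and Slc38a5, whose rises are included in the counts of their lists. The filter asks for 3 or more of the 12 arrays above their own median. A gene with fewer than 3 such arrays outside the GATA1-labelled 42 h group also needed that group to enter. Such genes were not counted here, and Add2, Col5a1 and Nqo1, whose 18 h arrays B and C read below their array medians, may be among them.

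The 12 largest rises were Car1, Hba-x, Slc38a5, Ces2g, Vwf, Add2, Sardh, Acp5, Hbb-y, Tspan33, Rhag and Cldn13. They were taken from called genes whose 18 h and 42 h arrays did not overlap, with clone-type names left out. Car1 encodes a carbonic anhydrase that is abundant in red cells. It read 19.9, 11.6 and 15.3 at 18 h and 1777, 2319 and 2293 at 42 h, a change of 6.08 ± 0.11 (adjusted p = 2.55e-09). The lowest 42 h array was far above the highest 18 h array. Slc38a5, a transporter of glutamine and other small amino acids, read 3.67, 3.64 and 3.66 at 18 h and 418, 460 and 533 at 42 h (4.62 ± 0.07, adjusted p = 7.69e-10). Its 18 h arrays sat at the bottom of the scale, as did all 6 vector-labelled arrays (3.64 to 3.70). Ces2g, a carboxylesterase, went from 45.8 ± 8.6 to 1421 ± 172. Sardh, the mitochondrial enzyme that breaks down sarcosine, went from 48.8 ± 9.58 to 903 ± 69.4. Acp5, the tartrate-resistant acid phosphatase, went from 21.1 ± 8.11 to 506 ± 74.3. By the rule of choice, none of these 3 had an 18 h array that reached any 42 h array. With 1 in place of 16 added before the logarithm, the changes of Car1 and Slc38a5 were 7.03 and 6.66, and with 64 they were 4.78 and 2.98, past the threshold each time.

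The 12 largest falls by the same rule were Cpa3, Fcgr3, Crisp3, Gcnt2, Cyp11a1, Tyrobp, Slc18a2, Elmo1, Stxbp6, Siglecf, Perp and Plac8. Cpa3, a carboxypeptidase of mast cell granules, read 888, 753 and 756 at 18 h and 62.2, 55.5 and 31.9 at 42 h (-3.66 ± 0.24, adjusted p = 1.44e-05). Fcgr3, a low-affinity receptor for IgG, read 700, 775 and 835 and then 64.8, 66.4 and 46.7 (-3.39 ± 0.13, adjusted p = 4.10e-07). Crisp3, a secreted cysteine-rich protein, went from 216 ± 11.1 to 9.36 ± 0.654. In all 3 the time groups lay far apart. Gcnt2, the enzyme that makes branched I blood group chains, went from 349 ± 119 to 36.1 ± 7.03, and Elmo1, which helps activate RAC, from 257 ± 64.1 to 34.8 ± 17.2. Cyp11a1, the enzyme that starts steroid synthesis, fell by 2.61 on its brightest probe set (adjusted p = 0.00508). Its second probe set changed by -0.00025, so its probe sets disagree.

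**Figure D1:**
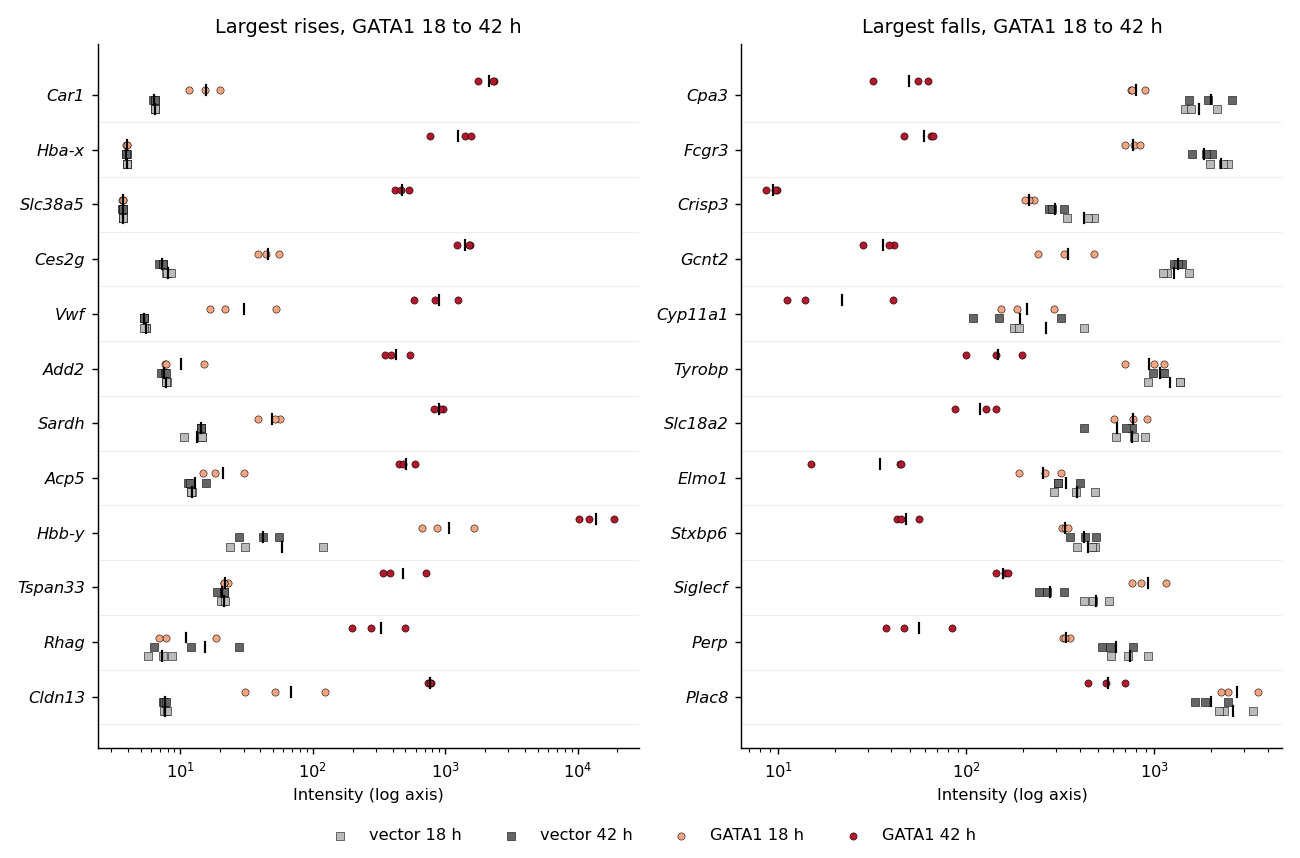
Intensity (log axis) of the 12 genes with the largest rises (left) and the 12 with the largest falls (right) between 18 h and 42 h in GATA1-labelled cells. Each point is 1 array, squares are vector-labelled and circles GATA1-labelled, and black ticks are means of 3 arrays. Only genes whose GATA1 42 h points are apart from their GATA1 18 h points were taken, as for Car1 (11.6 to 19.9 at 18 h, 1777 to 2319 at 42 h).

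The same time step in vector-labelled cells gave few calls without a replicate block. There 2 of the 10759 were called (0.0186%), both lower at 42 h, and 0 were higher by limma. With the array letter as a replicate block 41 were called, 4 higher and 37 lower. At an unadjusted p under 0.05 there were 676 (6.28%), 234 of them higher and 442 lower, against 2927 (27.2%) in the GATA1-labelled arrays. The number called was 1 without vector-labelled 18 h array A or B, without vector-labelled 42 h array A or B, or without any 1 of the 6 GATA1-labelled arrays. It was 3 without vector-labelled 18 h array C. The called genes were Mpp1, a membrane skeleton adaptor, and Trp53inp2, a regulator of autophagy. Mpp1 fell by 0.37 in the vector-labelled arrays, from 583, 609 and 612 to 461, 449 and 469, and rose by 0.57 in the GATA1-labelled arrays, from 1089, 1003 and 1050 to 1509, 1616 and 1563. It was the 1 gene called in both. Among the 1574 genes called in GATA1-labelled arrays the median size of the change was 0.55 there and 0.10 in the vector-labelled arrays. These genes were selected by their change in the GATA1-labelled arrays, which favours a larger size there, so the 2 medians are a description only.

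The difference between the time steps, tested directly as an interaction, was past the threshold for 501 genes (4.66%), 246 higher (2.29%) and 255 lower (2.37%) in GATA1-labelled cells. It was 323 without GATA1-labelled 18 h array B and 323 without 18 h array C. It was past the threshold for all 12 of the largest rises and for 11 of the 12 largest falls, the exception being Cyp11a1 (-2.15, adjusted p = 0.12). These genes were picked by their change in the GATA1-labelled arrays, which the difference also uses, so the count describes them and supports nothing more. The difference was 6.09 for Car1 (adjusted p = 6.39e-08) and -3.86 for Cpa3 (adjusted p = 2.32e-04). Some genes moved by like amounts in both. Trp53inp1, a p53-induced gene, changed by -1.42 in GATA1-labelled and -1.19 in vector-labelled arrays, a difference of -0.24 (adjusted p = 0.873), and its second probe set changed by -0.75 in GATA1-labelled arrays (adjusted p = 0.0641). Ccnb2, a mitotic cyclin, changed by 0.67 and 0.56 (difference 0.11, adjusted p = 0.919). The vector step of Trp53inp1 and Ccnb2 did not pass the threshold (adjusted p = 0.228 and 0.387), and a difference that misses the threshold does not show that the steps were equal. The Ccnb2 call in GATA1-labelled arrays was lost without 18 h array B or C (adjusted p = 0.0517 and 0.0523).

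**Figure D2:**
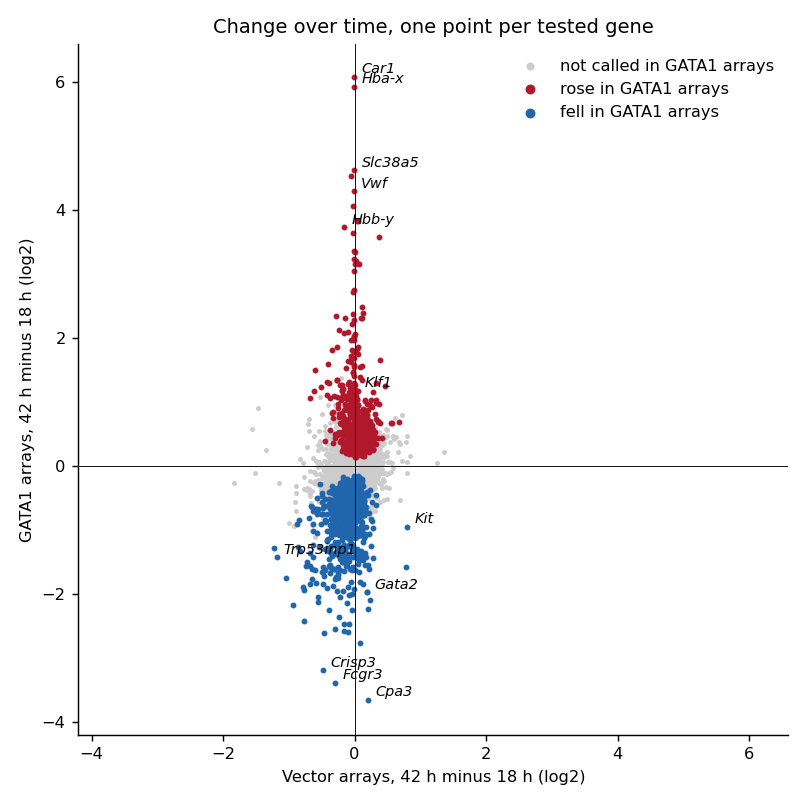
Change from 18 h to 42 h (log2) in vector-labelled arrays (horizontal) against GATA1-labelled arrays (vertical), with 1 point for each of the 10759 tested genes. Red genes rose and blue genes fell in GATA1-labelled arrays. Points spread along the vertical axis, from -3.66 for Cpa3 to 6.08 for Car1, and stay near 0 on the horizontal axis, with Trp53inp1 (-1.42 and -1.19) among those away from it.

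Embryonic globin genes rose. Of 6 globin genes with a probe set 5 were tested, 4 rose and 0 fell, but Hba-x and Hbb-b2 are 2 of these 4 and passed the filter on dim genes through the GATA1-labelled 42 h arrays alone, so the count is no support for the group. Hbb-y and Hbb-bh1 are the beta-like and Hba-x the alpha-like globins of the embryonic red cell. Hba-x read 3.95, 3.90 and 3.92 at 18 h and 1415, 765 and 1577 at 42 h (5.93 ± 0.21, adjusted p = 2.23e-07), and its 18 h arrays and the 6 vector-labelled arrays (3.87 to 3.97) all stood at the bottom of the scale. Hbb-y read 1640, 673 and 874 and then 18927, 12190 and 10319 (3.73 ± 0.49, adjusted p = 0.00104). Hbb-bh1 read 1727, 1090 and 2809 and then 14475, 15751 and 17247 (3.17 ± 0.73, adjusted p = 0.0178). For both, the 18 h and 42 h arrays did not overlap and the vector-labelled arrays stayed between 23.7 and 1015. The Hbb-bh1 call was lost without 18 h array B, 42 h array B or 42 h array C (adjusted p = 0.0655, 0.0562 and 0.0535). Adult globins are near-identical copies whose probe sets can share signal, so their values are uncertain. With that limit the probe set named Hbb-b2 went from 7.12 ± 0.0306 to 180 ± 52.1 (3.05 ± 0.14), and Hba-a2, chosen after its values were seen, read 23.2, 23.1 and 18.6 and then 32.3, 18.3 and 23.1, with overlapping arrays (0.09 ± 0.17, adjusted p = 0.837).

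Genes at several steps of heme synthesis rose. Of 18 tested genes 9 rose and 1 fell (55.6%, against 14.6% of all tested genes), with a median change of 0.56. The 9 include Alas2, which passed the filter on dim genes through the GATA1-labelled 42 h arrays alone, so its rise adds no support to the count. Alas2, the erythroid enzyme of the first and rate-setting step, read 3.21, 3.19 and 3.19 at 18 h and 91.5, 43.8 and 60 at 42 h (2.04 ± 0.16, adjusted p = 5.21e-05). It was at the bottom of the scale on all other arrays, and its change was 3.91 with 1 added and 0.93 with 64 added. Alad, the second enzyme, read 3523, 3171 and 2819 and then 10559, 10463 and 11026 (1.75 ± 0.11, adjusted p = 9.85e-06), and no array of 1 time came near the other. Abcb6, a porphyrin transporter, went from 411 ± 29.6 to 1014 ± 92.6, and Blvrb, biliverdin reductase B, which is abundant in red cells, from 693 ± 67.5 to 3511 ± 366 (2.31 ± 0.14). The member that fell was Tspo, a protein of the outer mitochondrial membrane, at -0.71 ± 0.21 (adjusted p = 0.0475). Its call was lost without any 1 of 5 of the GATA1-labelled arrays or 5 of the vector-labelled arrays, with adjusted p from 0.0559 to 0.141.

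The rest of the pathway was looked at after its values were seen. Urod, which makes coproporphyrinogen, rose by 0.70 (5207, 4407 and 4414, then 8516, 7198 and 7049; adjusted p = 0.00244). Ppox, the next to last enzyme, rose by 0.98 from 193 ± 30.5 to 395 ± 29 (adjusted p = 6.87e-04). Cpox, which acts between them, read 2109, 1736 and 2838 and then 3631, 4168 and 5138, a change of 0.96 with an adjusted p of 0.0501. Fech, which inserts the iron, read 4699, 3706 and 4783 and then 4644, 4891 and 5353, with overlapping arrays (0.18, adjusted p = 0.365). Uros changed by 0.09 (adjusted p = 0.688), and Alas1, the first enzyme in other tissues, by 0.21 (adjusted p = 0.0684). The heme exporter Flvcr1 rose by 0.80 and Tmem14c, which helps porphyrin into the mitochondrion, by 0.75. In the order of the pathway, Alas2, Alad, Urod and Ppox passed, and Uros, Cpox and Fech did not.

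The iron genes that passed the test mostly rose. Of 17 tested genes 6 rose and 1 fell (41.2%, against 14.6% of all tested genes), with a median of 0.24. Slc40a1, ferroportin, the exporter of iron, went from 20.9 ± 19.2 to 119 ± 31.9 (1.97 ± 0.30, adjusted p = 0.00241). Slc25a37, mitoferrin 1, which brings iron into mitochondria, read 339, 271 and 356 and then 581, 531 and 548 (0.76 ± 0.13, adjusted p = 0.00493). Nfs1, the sulfur donor of iron-sulfur clusters, rose by 0.41 on its brightest probe set and changed by 0.15 on its second (adjusted p = 0.855). Tfrc, the transferrin receptor, was bright at both times, at 9561 ± 602 and 11723 ± 231, a change of 0.30 ± 0.07 (adjusted p = 0.0223) that was lost without 18 h array A or B or 42 h array B or C (adjusted p = 0.0603, 0.0803, 0.0664 and 0.0672) and on its second probe set (0.71, adjusted p = 0.246). Ncoa4, the receptor that sends ferritin to be broken down, fell by 0.75 from 7199, 5911 and 6822 to 3972, 3955 and 3905 (adjusted p = 2.39e-04).

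**Figure D3:**
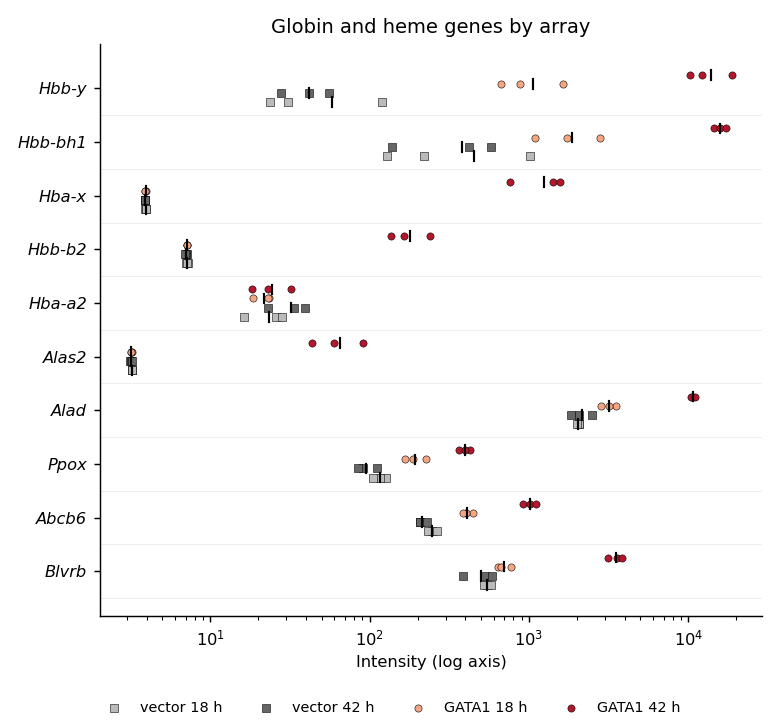
Intensity (log axis) of 5 globin and 5 heme genes on each array, with squares for vector-labelled and circles for GATA1-labelled arrays and black ticks for means of 3 arrays. Hba-x and Alas2 stand at 3.12 to 3.97 on all arrays other than GATA1 42 h, Alad moves from 2819 to 3523 up to 10463 to 11026, and the Hba-a2 points overlap.

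The membrane of the red cell is a protein skeleton of spectrin and adducin, tied to surface proteins that include the Rh group and the anion exchanger. Of 20 tested genes of the membrane and surface list 12 rose and 1 fell (65%, against 14.6% of all tested genes). The 12 include Ermap, which passed the filter on dim genes through the GATA1-labelled 42 h arrays alone, so its rise adds no support to the count. The median change was 0.74. Add2, beta-adducin, read 15.1, 7.65 and 7.72 at 18 h and 349, 392 and 543 at 42 h (4.07 ± 0.15, adjusted p = 2.84e-07). Rhag, which carries the Rh proteins to the surface, read 18.5, 7.75 and 6.89 and then 501, 199 and 274 (3.58 ± 0.33, adjusted p = 1.35e-04). Tspan33, a tetraspanin of erythroid cells, went from 21.8 ± 0.836 to 482 ± 208 and Cldn13, a claudin, from 68.3 ± 48.2 to 762 ± 21.5. At 18 h Rhag lay within the range of its vector-labelled arrays (5.65 to 27.6), while Cldn13 at 18 h (123, 30.6 and 51.8) lay above all its vector-labelled arrays (7.40 to 7.88). Slc4a1, the anion exchanger band 3, read 133, 25.7 and 73.9 at 42 h against 9.12 to 10 at 18 h (1.69 ± 0.35, adjusted p = 0.0112), so its 42 h arrays differed widely among themselves. Its second probe set changed by 0.80 (adjusted p = 0.0625).

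Further members of the skeleton were chosen after their values were seen. Sptb, beta-spectrin, rose by 3.21 from 39.4 ± 10.6 to 505 ± 147, and Ermap, an erythroblast surface protein, by 3.35 from 4.13 ± 0.0118 to 200 ± 75.7. Icam4, an adhesion protein of erythroid cells, rose by 1.82 from 288 ± 17.4 to 1058 ± 110. Ank1, ankyrin, and Epb42, protein 4.2, rose by 0.27 and 0.35, and Ank1 was dim at both times (11.5 ± 0.0257 and 17.1 ± 1.58). The member that fell was Ackr1, the Duffy chemokine receptor (-0.75 ± 0.21, adjusted p = 0.0422), a call that was lost without any 1 of 4 GATA1-labelled or 5 vector-labelled arrays, with adjusted p from 0.0501 to 0.126.

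The erythroid maturation list split. Of 24 tested genes 10 rose and 5 fell (62.5%, against 14.6% of all tested genes), and the median was 0.11. Epor, the receptor for erythropoietin, read 198, 169 and 192 at 18 h and 362, 520 and 659 at 42 h (1.35 ± 0.24, adjusted p = 0.00484). The times did not overlap, and vector-labelled arrays read 25.4 to 59.2. Trim10, a ubiquitin ligase of erythroid cells, rose by 1.62, Tmcc2 by 1.48, E2f2, a cell cycle factor of erythroblasts, by 0.90, and Prdx2, a peroxidase that is abundant in red cells, by 0.94 from 12970 ± 1342 to 24796 ± 477. Car2, the other carbonic anhydrase, went the other way from Car1, from 27651, 24533 and 27602 to 19040, 17190 and 19821 (-0.51 ± 0.07, adjusted p = 0.00103). Cited2, a coactivator, fell by 0.47 and Xpo7, a nuclear exporter, by 0.43. The Cited2 call was lost without 18 h array C or 42 h array B (adjusted p = 0.057 and 0.0565) and the Xpo7 call without any of 5 GATA1-labelled arrays or vector-labelled 18 h array A (adjusted p from 0.053 to 0.121). Both calls were also lost on the second probe set (adjusted p = 0.149 for Cited2 and 0.0556 for Xpo7).

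Of 23 tested GATA factors and partners 1 rose and 2 fell, with a median of -0.03, and their share of 13.0% was close to the 14.6% of all tested genes. Gata2 read 2036, 2038 and 3418 at 18 h and 426, 763 and 680 at 42 h (-1.97 ± 0.31, adjusted p = 0.00263). All 42 h arrays were below all 18 h arrays, and the vector-labelled arrays stayed between 2109 and 3985 over both times, a difference between the time steps of -2.17 (adjusted p = 0.0228). Klf1, the erythroid Krüppel-like factor that activates beta-globin, read 1907, 1916 and 1752 and then 4504, 3962 and 4228 (1.18 ± 0.19, adjusted p = 0.00361), against 168 to 323 in vector-labelled arrays. The Klf1 difference between the time steps was 1.14 (adjusted p = 0.0509). Lyl1, a relative of TAL1, fell by 1.08 from 4017 ± 348 to 1895 ± 131 (adjusted p = 2.83e-05).

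The core complex members did not pass the threshold. Tal1 changed by -0.18 ± 0.10 (adjusted p = 0.323), Lmo2 by 0.06 ± 0.19 (adjusted p = 0.939), Zfpm1 by -0.03 ± 0.29 (adjusted p = 0.998), Gfi1b by -0.21 ± 0.10 (adjusted p = 0.206) and Gata1 by -0.20 ± 0.11 (adjusted p = 0.289). Lmo2 was already at 8673, 7868 and 9098 on the GATA1-labelled arrays at 18 h and at 8576, 9069 and 9068 at 42 h, against 2105 to 4394 on the vector-labelled arrays. Outside this complex 2 repressors of embryonic globin moved in opposite directions. Bcl11a read 93.6, 97.4 and 120 and then 562, 522 and 655 (2.32 ± 0.24, adjusted p = 2.51e-04). Sox6 read 995, 880 and 904 and then 434, 358 and 271 (-1.37 ± 0.18, adjusted p = 0.00104). The embryonic globins rose over the same interval, as given above.

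**Figure D4:**
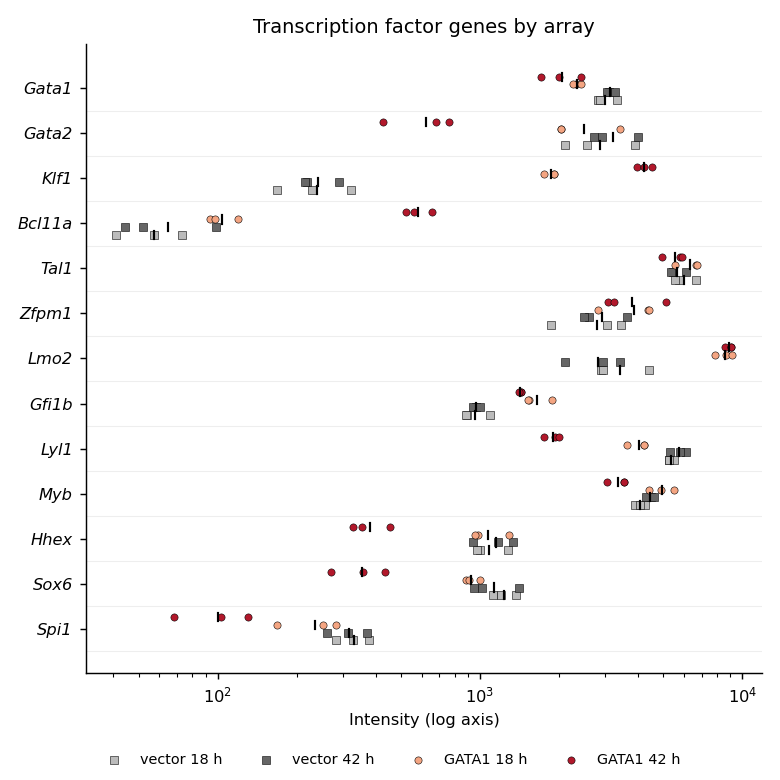
Intensity (log axis) of 13 transcription factor genes on each array, with squares for vector-labelled and circles for GATA1-labelled arrays and black ticks for means of 3 arrays. Gata2 falls from 2036 to 3418 down to 426 to 763, Klf1 and Bcl11a rise, and the 2 times overlap for Gata1, Tal1, Zfpm1 and Lmo2.

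The stem and progenitor regulators that passed the test all fell. Of 23 tested genes 0 rose and 10 fell (43.5%, against 7.91% lower among all tested genes), the others did not pass, and the median was -0.49. Relative to the vector time step 0 rose and 9 fell, against 2.29% higher and 2.37% lower among all tested genes. At an unadjusted p under 0.05 in the GATA1-labelled arrays it was also 0 that rose, and 12 fell. Ikzf2, Helios, a zinc finger factor, read 530, 667 and 676 at 18 h and 141, 115 and 106 at 42 h (-2.23 ± 0.25, adjusted p = 3.95e-04). Hhex, a homeobox factor of early blood cells, went from 1286, 980 and 958 to 454, 356 and 327 (-1.47 ± 0.18, adjusted p = 6.45e-04). Myb, a factor that keeps progenitors dividing, went from 5475, 4396 and 4912 to 3040, 3531 and 3532 (-0.54 ± 0.08, adjusted p = 0.00261). All 3 genes had separate time groups, as nearly all called genes did. Meis1, chosen after its values were seen, fell by 0.90 from 2538 ± 201 to 1362 ± 183.

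Kit, the receptor for stem cell factor, read 78.5, 109 and 108 at 18 h and 40.4, 44.1 and 44.2 at 42 h (-0.95 ± 0.21, adjusted p = 0.015). On the vector-labelled arrays it read 283, 411 and 354 and then 731, 730 and 431, and the difference between the time steps was -1.75 (adjusted p = 0.0108). The call in GATA1-labelled arrays was lost without 18 h array B or C (adjusted p = 0.0574 and 0.0573). The second probe set of Kit changed by -0.41 (adjusted p = 0.432), that of Ikzf2 by -0.57 (adjusted p = 0.701) and that of Myb by -0.47 (adjusted p = 0.0534). Myc did not pass the threshold, at 2411 ± 531 and 2479 ± 303 (0.05 ± 0.23, adjusted p = 0.972).

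Megakaryocyte and platelet genes went both ways. Of 46 tested genes 11 rose and 11 fell (47.8%, against 14.6% of all tested genes), with a median of -0.07. The 11 that rose include Slc6a4, which passed the filter on dim genes through the GATA1-labelled 42 h arrays alone, so its rise adds no support to the count. Relative to the vector time step, however, 10 rose and 0 fell, against 2.29% higher and 2.37% lower among all tested genes. In vector-labelled arrays 0 of the list rose and 9 fell at an unadjusted p under 0.05, and such falls enter this difference. Vwf, von Willebrand factor, the adhesive protein of platelets and endothelium, read 52.6, 21.8 and 16.7 at 18 h and 1256, 833 and 580 at 42 h (4.30 ± 0.30, adjusted p = 2.16e-05). Slc6a4, the serotonin transporter, went from 5.49 ± 0.731 to 96.7 ± 19.5 (2.38 ± 0.10). Sparc, a secreted protein of platelet granules, read 137, 174 and 121 and then 529, 801 and 656 (2.08 ± 0.25, adjusted p = 5.87e-04). Tubb1, the tubulin of the platelet ring, read 2095, 1461 and 1450 and then 7552, 5648 and 5157 (1.87 ± 0.19, adjusted p = 2.51e-04), against 312 to 496 in vector-labelled arrays. Each of these 4 had separate time groups, as did 1569 of the 1574 called genes. Pf4, platelet factor 4, rose by 0.71 from 10892 ± 2269 to 17656 ± 1896 (adjusted p = 0.0182), a call lost without 18 h array B or C or 42 h array A or B (adjusted p = 0.059, 0.057, 0.0564 and 0.052).

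Among the falls, Tbxas1, thromboxane synthase, went from 101, 149 and 155 to 35.5, 48.7 and 46.4 (-1.33 ± 0.21, adjusted p = 0.00265). Its change in vector-labelled arrays was -0.83 (adjusted p = 0.387), and the difference, -0.50, did not pass (adjusted p = 0.499). F2r, the main thrombin receptor, fell by 0.67 from 12590 ± 1512 to 7931 ± 1243 and Prkcq, a kinase of platelet activation, by 0.74 from 1139 ± 58.4 to 679 ± 120. Itga2b, integrin alpha IIb, read 3743, 3830 and 3726 and then 2500, 3141 and 2836, with no overlap but a change of -0.42 ± 0.13 that missed the threshold (adjusted p = 0.0537). Thbs1 and Fli1, chosen after their values were seen, also missed it. Thbs1, thrombospondin, went from 3278 ± 1828 to 5651 ± 759 with overlapping arrays (adjusted p = 0.17), and Fli1, the ETS factor of megakaryocytes, was at 6978 ± 333 and 6727 ± 415 (adjusted p = 0.91).

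Most of the called myeloid genes fell. Of 30 tested genes of the PU.1 and myeloid list 2 rose and 14 fell (53.3%, against 14.6% of all tested genes). The median was -0.58, and 9 were called without 18 h array B. Relative to the vector time step 2 rose and 6 fell, against 2.29% higher and 2.37% lower among all tested genes. In vector-labelled arrays 0 rose and 7 fell at an unadjusted p under 0.05. Spi1 read 168, 253 and 282 at 18 h and 68, 103 and 131 at 42 h (-1.11 ± 0.24, adjusted p = 0.0135). The times did not overlap, the vector-labelled arrays read 261 to 377, and the difference between the time steps, -1.04, did not pass (adjusted p = 0.15). The Spi1 call was lost without 18 h array B or C (adjusted p = 0.0515 and 0.0543). Tyrobp, the adaptor DAP12, read 698, 996 and 1126 and then 99.6, 197 and 144 (-2.57 ± 0.25, adjusted p = 1.77e-04). Ncf1 and Ncf4, subunits of the phagocyte oxidase, went from 497 ± 49.9 to 136 ± 11.3 (-1.76 ± 0.10) and from 1986 ± 220 to 650 ± 43.8 (-1.58 ± 0.11). The members that rose were Prtn3, proteinase 3, by 0.89 from 26.4 ± 3.23 to 63.5 ± 16.1, and Itgb2, the beta chain of leukocyte integrins, by 0.36 from 1966 ± 178 to 2518 ± 52.2. The Itgb2 call was lost without 18 h array A or B or any 42 h array (adjusted p from 0.0576 to 0.109).

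The mast cell, basophil and eosinophil genes that passed the test fell as well. Of 12 tested genes 0 rose and 7 fell (58.3%, against 7.91% lower among all tested genes), the others did not pass, the median was -0.73, and 0 rose and 7 fell at an unadjusted p under 0.05. Besides Cpa3 these included Slc18a2, the vesicle transporter of amines, which read 916, 610 and 769 and then 127, 143 and 86.7 (-2.54 ± 0.26, adjusted p = 2.14e-04). Cd244a, a receptor of the SLAM family, went from 110 ± 22.7 to 16.1 ± 3.01 (-1.96 ± 0.15, adjusted p = 3.92e-05). Alox5ap, the partner of 5-lipoxygenase, went from 1075 ± 115 to 441 ± 50.5 (-1.26 ± 0.10). Siglecf, a lectin of eosinophils that is not in that list, went from 921 ± 210 to 157 ± 11.5 (-2.42 ± 0.17), and in vector-labelled arrays its change was -0.77 (adjusted p = 0.292). In RNA of a whole sorted population, fewer cells of a type and less RNA per cell cannot be told apart. The summed intensity of the 12 tested genes was between 25683 and 29611 on the 18 h arrays and between 15124 and 18016 on the 42 h arrays. Of the 30 genes of the list with a probe set, 18 were too dim to be tested.

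Most lymphoid genes and most fibroblast and endothelial genes were too dim to be tested. Of 25 lymphoid genes with a probe set 5 were tested, and 0 were called in either set of cells, also when any 1 array was left out. In GATA1-labelled cells 1 was called without the arrays lettered A, 2 with array weights and 3 with the replicate block. At an unadjusted p under 0.05, 2 fell in GATA1-labelled and 0 changed in vector-labelled arrays. Nkg7 and Cd79b, the brightest, read 258 ± 36.4 and 81.3 ± 27.6 at 18 h and 195 ± 34.6 and 37.8 ± 13.9 at 42 h (adjusted p = 0.307 and 0.131). Of 22 fibroblast and endothelial genes with a probe set 9 were tested. Of these 2 rose and 1 fell (33.3%, against 14.6% of all tested genes). Col5a1, a collagen chain, went from 10.2, 6.69 and 6.63 to 118, 140 and 173 (2.73 ± 0.11, adjusted p = 4.10e-07). Vegfa, the endothelial growth factor, went from 43.8, 34.5 and 44.1 to 163, 143 and 162 (1.60 ± 0.21). Tie1, an endothelial receptor kinase, went from 240 ± 115 to 45.1 ± 20.8 (-2.00 ± 0.44, adjusted p = 0.0143; 0.0572 and 0.0575 without 18 h array B or C), and vector-labelled arrays read 208 to 439. Other fibroblast genes of the list did not move with Col5a1: Pdgfra, Fbln1, Fn1 and Acta2, named after their values were seen, changed by -0.00, 0.01, 0.00 and -0.01. The added 16 understates changes of dim genes, so such small values do not show that these genes held steady.

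Cytokine signalling genes fell more often than they rose. Relative to the vector time step 1 rose and 4 fell among the 32 tested genes of the receptor and JAK-STAT list. Among all tested genes the shares were 2.29% higher and 2.37% lower. In the GATA1-labelled arrays 2 rose and 11 fell (40.6%, against 14.6% of all tested genes), with a median of -0.17. The number called was 7 without 18 h array B and 7 without 18 h array C. Besides Epor the member that rose was Socs3, the feedback inhibitor of cytokine receptors, from 50.6 ± 7.61 to 125 ± 43.1 (1.04 ± 0.24, adjusted p = 0.019). That call was lost without 18 h array B or 42 h array A or B (adjusted p = 0.069, 0.0547 and 0.0715). Jak3, the kinase of the common gamma chain, went from 447, 554 and 591 to 186, 240 and 279 (-1.13 ± 0.17, adjusted p = 0.00236), while vector-labelled arrays read 481 to 709. Of 27 ERK feedback and immediate early genes 1 rose and 7 fell (29.6%, against 14.6% of all tested genes). Relative to the vector time step 1 rose and 1 fell, against the same 2.29% and 2.37% of all tested genes. With array weights 13 were called, and 5 without the arrays lettered A. Egr1 read 1694, 1515 and 1798 and then 704, 714 and 508 (-1.37 ± 0.17, adjusted p = 6.45e-04). Of the 42 h arrays A and B lay within the range of the vector-labelled arrays (524 to 862) and C just below it. Cd69, an early activation marker, fell by 1.09 from 187 ± 35.6 to 79.1 ± 13.1. Dusp1, a phosphatase that ends MAP kinase signals, was the member that rose, from 29.7 ± 5.66 to 97.5 ± 10 (1.32 ± 0.14, adjusted p = 3.20e-04).

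Replication, mitosis, cyclin and MYC genes were called at shares from 13.7% to 21.9%, against 14.6% of all tested genes. Of 47 tested DNA replication genes 7 rose and 1 fell (17.0%), with a median of 0.06, and of 51 mitosis genes 6 rose and 1 fell (13.7%), with a median of 0.16. Called DNA replication genes numbered 4 without 18 h array C, and 5 without 18 h array A, 42 h array B or 42 h array C. Called mitosis genes numbered 2 without 18 h array B, 3 without 18 h array C or 42 h array B, and 4 without 42 h array C or vector-labelled 42 h array B. The counts also went up, to 18 and 19 with array weights, to 11 and 15 with the replicate block, and for mitosis to 11 without the arrays lettered A. Cdc6, which loads the replicative helicase, went from 1208, 1090 and 1032 to 1700, 1437 and 1594 (0.50 ± 0.10, adjusted p = 0.00805). Rfc2, a subunit of the clamp loader, went the other way, from 4944 ± 230 to 3847 ± 78.3 (-0.36 ± 0.05, adjusted p = 0.0021), and its partner Rfc4 rose by 0.47. On their second probe sets neither passed, at -0.23 for Rfc2 (adjusted p = 0.345) and 0.36 for Rfc4 (adjusted p = 0.226). Ccna2, cyclin A2, went from 2559, 2308 and 2503 to 3452, 3490 and 4002 (0.57 ± 0.11, adjusted p = 0.00882), and by 0.35 on its second probe set (adjusted p = 0.0816). None of the differences from the vector time step passed for these genes other than Rfc2 (-0.42, adjusted p = 0.0138).

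Of 32 cyclins D and E, CDK inhibitors and E2F genes 3 rose and 4 fell (21.9%). The count of 7 dropped to 3 without any of the 18 h arrays or 42 h array B or C, and to 4 without 42 h array A, vector-labelled 18 h array C or vector-labelled 42 h array B or C. E2f2 (0.90 ± 0.13, adjusted p = 0.00151) and Rbl2, the RB relative p130 (-0.63 ± 0.09, adjusted p = 0.00159), kept their calls when any 1 array was left out, while the second probe set of Rbl2 changed by -0.78 (adjusted p = 0.0785). The inhibitor Cdkn1b did not pass, at 394 ± 24.7 and 381 ± 46.4 (adjusted p = 0.885). Of 52 MYC and ribosome biogenesis genes 9 rose and 0 fell (17.3%, against 14.6% of all tested genes), with 5 called without 18 h array A, 42 h array B or 42 h array C, and 15 with the replicate block or with array weights. Odc1, the first enzyme of polyamine synthesis, rose by 0.45 from 14431 ± 353 to 19775 ± 822 (adjusted p = 3.87e-04). Of 38 ribosomal protein genes 1 rose and 1 fell (5.26%), against 14.6% of all tested genes, and of 58 oxidative phosphorylation genes 4 rose and 0 fell (6.90%). The latter count was 1 without 18 h array B or C or 42 h array B, 2 without 18 h array A, 7 without vector-labelled 42 h array B 8 without 42 h array A or with the replicate block, and 15 with array weights. The 2 ribosomal calls were 0 without 18 h array B or C or 42 h array B, 1 without 7 of the others, and 8 with array weights.

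Most of the called autophagy and mitochondrial clearance genes fell. Autophagy is the route by which a maturing red cell sheds its mitochondria. Of 36 tested genes 1 rose and 7 fell (22.2%, against 14.6% of all tested genes), at a median of -0.08. Relative to the vector time step 0 rose and 2 fell, against 2.29% higher and 2.37% lower among all tested genes. The number called was 5 without 18 h array A or C or 42 h array B, and 14 with array weights. Pink1, a kinase that marks damaged mitochondria, went from 358, 345 and 403 to 171, 152 and 147 (-1.15 ± 0.09, adjusted p = 3.95e-05). Tax1bp1, a cargo receptor, went from 4324 ± 277 to 2563 ± 116 (-0.75 ± 0.06), and by -0.52 on its second probe set (adjusted p = 0.0878). In both brightest probe sets, no 42 h array reached an 18 h array, and the fall exceeded that of vector-labelled cells (-0.96 and -0.70, adjusted p = 0.00272 and 0.00231).

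Of 33 interferon response and antigen processing genes 0 rose and 7 fell (21.2%, against 14.6% of all tested genes). The median was -0.14, and relative to the vector time step 0 rose and 4 fell, against 2.29% and 2.37% of all tested genes. At an unadjusted p under 0.05, 0 rose and 9 fell in GATA1-labelled arrays. The falls of largest size were those of Psmb8, Psmb9, Tap1 and Psme1. Psmb8 and Psmb9 are parts of the immunoproteasome, the form of the proteasome that makes peptides for antigen display. Psmb8 read 1176, 1231 and 1291 at 18 h and 458, 669 and 554 at 42 h (-1.13 ± 0.11, adjusted p = 1.99e-04), and its second probe set changed by -0.15 (adjusted p = 0.218). Tap1, which carries such peptides into the endoplasmic reticulum, fell by 0.59 from 159 ± 6.14 to 101 ± 17.9 (adjusted p = 0.0347), a call lost without any 18 h array or 42 h array A or C (adjusted p from 0.0611 to 0.105). Psmb9 fell by 0.77 from 540 ± 55.5 to 311 ± 44.7 and Psme1, an activator subunit, by 0.51 from 8612 ± 254 to 6075 ± 676. Vector-labelled arrays of Psmb8 stayed between 1246 and 1453.

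Most of the called antioxidant genes rose. Of 33 tested genes 8 rose and 1 fell (27.3%, against 14.6% of all tested genes), with a median of 0.18 and 14 called with the replicate block. Relative to the vector time step 6 rose and 0 fell, against 2.29% higher and 2.37% lower among all tested genes. Nqo1, a quinone reductase, went from 18.1, 6.26 and 6.46 to 109, 70.7 and 59.9 (1.86 ± 0.20, adjusted p = 3.20e-04). Txnrd2, mitochondrial thioredoxin reductase, rose by 0.49 from 323 ± 12.6 to 460 ± 4.82, and its second probe set changed by 0.32 (adjusted p = 0.415). Txnip, the inhibitor of thioredoxin, fell by 1.76 ± 0.47 (adjusted p = 0.0332), a call lost without any 18 h array or 42 h array A or C (adjusted p from 0.0505 to 0.116) and on its second probe set (adjusted p = 0.205). Of 29 amino acid genes 4 rose and 1 fell (17.2%, near the 14.6% of all tested genes), with 10 called under the replicate block and 12 with array weights. The 4 include Slc38a5, which passed the filter on dim genes through the GATA1-labelled 42 h arrays alone. Besides Slc38a5 the rises were small, as for Asns, asparagine synthetase (0.43 ± 0.04, adjusted p = 2.39e-04).

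Among 32 p53 targets and BCL2 family genes 2 rose and 6 fell (25%, against 14.6% of all tested genes). The number called was 4 without 18 h array B or 42 h array B and 5 without 42 h array C. Relative to the vector time step 1 rose and 2 fell, against 2.29% higher and 2.37% lower among all tested genes. At an unadjusted p under 0.05, 3 rose and 8 fell in GATA1-labelled arrays, and 0 rose and 7 fell in vector-labelled arrays. Bcl2, the founding survival factor, read 273, 309 and 261 and then 124, 76.5 and 78.1 (-1.47 ± 0.20, adjusted p = 0.00126; difference from the vector step -1.29, adjusted p = 0.0342). Bcl2l1, BCL-XL, the survival factor of erythroblasts, chosen after its values were seen, was at 271 ± 17.9 and 234 ± 5.8 (adjusted p = 0.15). Of 23 glycolysis genes 3 rose and 1 fell (17.4%), of 22 cholesterol genes 1 rose (4.55%) and of 32 heat shock genes 3 rose (9.38%), against 14.6% of all tested genes. Of the glycolysis calls 2 were left without 18 h array B or 42 h array B, and the cholesterol list had 3 without 42 h array A, 5 without the arrays lettered A and 6 with the replicate block or array weights. The heat shock list had 7 with the replicate block, 6 with array weights and 1 with only the compared arrays. Aldoc, aldolase C, fell by 1.42 from 1055 ± 249 to 377 ± 32.8 on its brightest probe set and changed by -0.11 on its second. Ebp, a sterol isomerase, rose by 0.63 from 2666 ± 148 to 4131 ± 197. Of 39 chromatin regulators 1 rose and 3 fell (10.3%), with 2 called without 18 h array A or 42 h array A and 8 with array weights. Hmga2, a chromatin protein of fetal and progenitor cells, went from 50.5, 55.5 and 60.8 to 8.93, 12.7 and 14.2 (-1.36 ± 0.13, adjusted p = 1.90e-04), and vector-labelled arrays read 119 to 189.

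**Figure D5:**
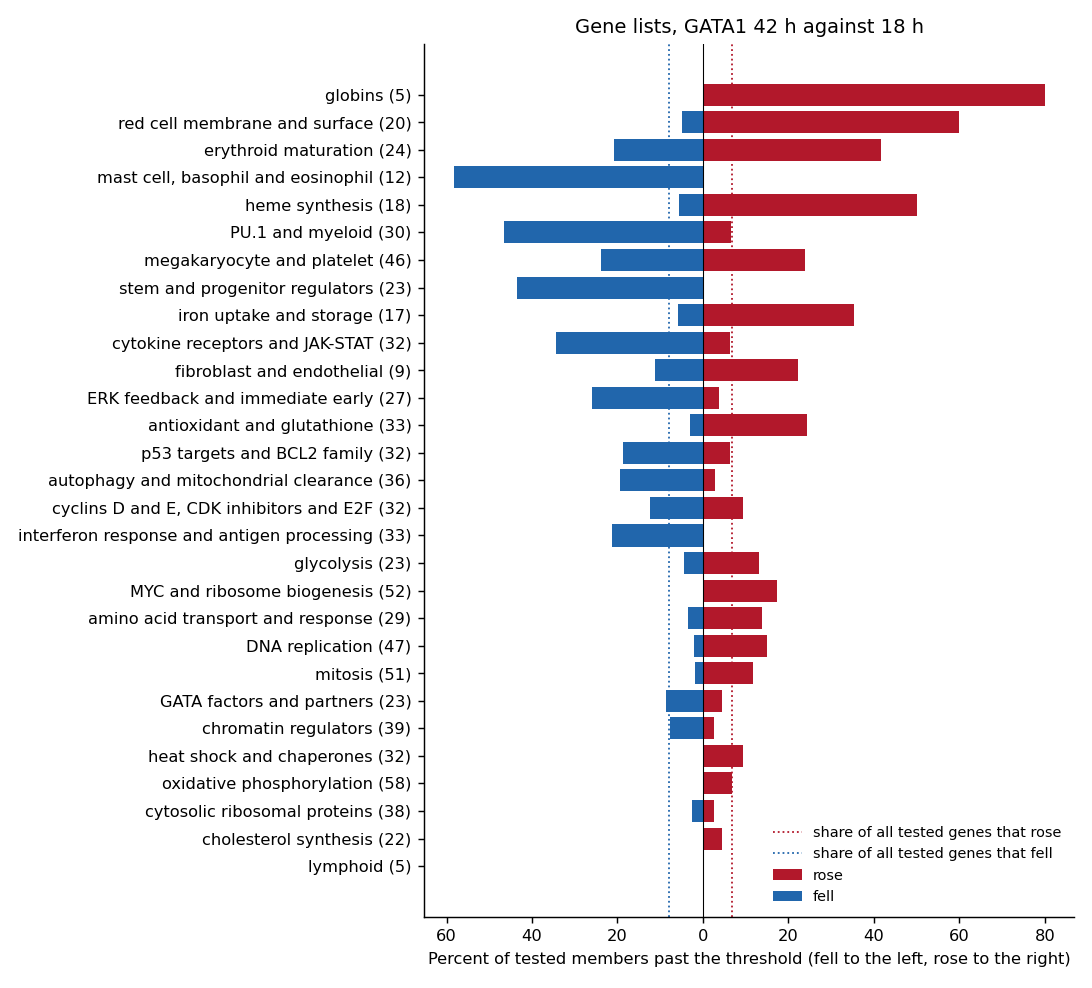
Percent of the tested members of each list that rose (red, to the right) or fell (blue, to the left) from 18 h to 42 h in GATA1-labelled arrays, with the number tested in brackets. Dotted lines give the shares over all tested genes, 6.72% higher and 7.91% lower. Globins (4 of 5) and membrane genes (12 of 20) reach farthest to the right, and mast cell genes (7 of 12) reach farthest to the left. The bars include genes that passed the filter on dim genes through the GATA1-labelled 42 h arrays alone.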

How the data were processed

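RNA of 12 arrays, 3 in each of 4 groups set by the titles, was measured on Affymetrix arrays. The authors deposited 1 linear intensity for each of 45101 probe sets and array. GCRMA and MAS5 are both named, with no version or role, in the submitters' processing notes, and it is not known which of them made the deposited intensity values. No further normalization was applied.

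A table of platform annotation named 34945 probe sets with 1 gene symbol and 932 with several, and left 9160 unnamed beside 64 controls. By gene ID, 34741 matched a RefSeq table for GRCm38.p6. Each gene was represented by its brightest probe set and tested if 3 or more of the 12 arrays read above their own median there. Values as log2(intensity + 16) entered lmFit and eBayes of limma 3.58.1 (R 4.3.3), all 12 arrays together. Contrasts were 42 h against 18 h in GATA1-labelled cells, the same in vector-labelled cells, and the difference of these. Tests were two-sided, with Benjamini-Hochberg adjustment. The number of arrays limits the precision.

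The comparison and the 29 gene lists were chosen with earlier results of these data known, and 997 of 1099 list entries are on the array. Named genes are those tested of 25 listed by name, the 12 largest rises and falls with no overlap between arrays, per list the 4 members at most that rose most and the 4 that fell most (the 2 brightest where none passed), the 6 largest differences each way and up to 5 vector changes each way, with clone-type names left out. Others are said to have been chosen after their values were seen. On simulated data for 10759 genes with 100 changed 2-fold and 100 changed 4-fold, in the GATA1 42 h arrays, the GATA1 contrast recovered 81 and 98, with 11 false calls, and the difference of the time steps 60 and 97, with 10 false calls. No change was simulated for the vector contrast, which called 0 genes. The simulated noise was normal, independent between arrays and of equal spread on all arrays of a gene. The real arrays varied by letter and differed in quality, with array weights from 0.453 to 3.93, so these figures need not hold for them. The alternatives were pseudocounts of 1 and 64, no filter and a stricter filter, quantile normalization, only the arrays compared, array weights, an intensity trend, a replicate block, the second brightest probe set, and leaving out arrays.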

Additional observations from a re-analysis of the deposited data

Results flagged for a closer look

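The change from 18 h to 42 h was not the same with GATA1 as with the vector, by the interaction test of limma at an adjusted p under 0.05, for 77 of the genes named by rule, 42 of them higher and 35 lower in GATA1-labelled cells. Since many of these genes were named for a large change in the GATA1-labelled arrays, the count describes them and supports nothing more. Each value is the change from 18 h to 42 h in GATA1-labelled minus that in vector-labelled arrays, on the log2(intensity + 16) scale.

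First those that were lower. Among mast cell and myeloid genes it was -3.86 for Cpa3, -3.10 for Fcgr3, -2.41 for Tyrobp, -2.24 for Slc18a2, -2.15 for Cd244a, -1.65 for Siglecf, -1.45 for Ncf1, -1.33 for Ncf4 and -0.72 for Alox5ap. Among progenitor and other transcription regulators it was -2.44 for Ikzf2, -2.17 for Gata2, -1.54 for Hhex, -1.52 for Hmga2, -1.23 for Sox6, -1.18 for Lyl1, -1.17 for Egr1, -0.67 for Myb and -0.52 for Dnmt3b. Among receptor, signalling and survival genes it was -1.75 for Kit, -1.29 for Bcl2, -1.13 for Jak3, -2.30 for Elmo1 and -2.12 for Perp. Among antigen processing and clearance genes it was -1.27 for Psmb8, -0.82 for Psmb9, -0.53 for Psme1, -0.96 for Pink1, -0.70 for Tax1bp1 and -0.59 for Ncoa4. Among the remaining genes that were lower it was -2.85 for Gcnt2, -2.72 for Crisp3, -2.38 for Stxbp6, -1.86 for Plac8, -0.45 for Car2 and -0.42 for Rfc2.

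Next those that were higher. Among globin, heme and iron genes it was 5.93 for Hba-x, 3.90 for Hbb-y, 3.06 for Hbb-b2, 2.46 for Blvrb, 2.04 for Alas2, 1.70 for Alad, 1.47 for Abcb6, 2.02 for Slc40a1 and 0.44 for Nfs1. Among membrane and maturation genes it was 6.09 for Car1, 4.09 for Add2, 3.67 for Tspan33, 3.36 for Cldn13, 3.21 for Rhag, 2.20 for Bcl11a, 1.67 for Trim10, 1.62 for Epor, 1.49 for Tmcc2, 1.03 for E2f2 and 0.94 for Mpp1. Among platelet and secreted genes it was 4.31 for Vwf, 2.41 for Slc6a4, 2.24 for Sparc, 2.13 for Tubb1, 2.75 for Col5a1 and 2.01 for Vegfa. Among antioxidant genes it was 1.82 for Nqo1, 1.005 for Prdx2 and 0.45 for Txnrd2. Among metabolic and transport genes it was 4.62 for Slc38a5, 4.59 for Ces2g, 3.78 for Sardh, 3.79 for Acp5, 1.10 for Pfkm, 0.64 for Ebp, 0.49 for Odc1 and 0.37 for Slc7a11. Among the remaining genes that were higher it was 1.80 for Eda2r, 1.40 for Dusp1, 0.86 for Prtn3, 0.82 for Trp53inp2 and 0.69 for Itgb2.

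Probe sets with no gene symbol or with several were left out of the comparisons. Of the 3245 that were bright enough, 143 were called between 18 h and 42 h in GATA1-labelled arrays and 2 in vector-labelled arrays, and 46 differed between the time steps. They name no gene here.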

How the results depend on the processing

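Over 23 alternatives 0 of the GATA1-labelled changes of genes named by rule took the opposite sign where the main or the alternative fit called the gene. Sign changes with no call in either fit were not counted. Vector-labelled changes and differences of the time steps were not checked for this. Of the 143 named genes called between 18 h and 42 h in GATA1-labelled cells, 48 lost the call when some single array was left out, 29 without the 4 arrays lettered A and 3 (Cdkn2c, Prc1 and Utp15) with a replicate block. A second tested probe set existed for 74, and 36 missed the threshold there. Array number and dim probe sets limit these results; 5087 genes had a second probe set to test.

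For GATA1-labelled cells array weights gave 2929 called genes (1391 higher, 1538 lower) and the second brightest probe set 406 (210 and 196). Leaving out 1 array gave 1057 to 1598, with 471 to 757 higher and 573 to 862 lower. No filter on low values gave 1142, and leaving out the arrays lettered A 1316, of which 1009 were among the 1574. For vector-labelled cells a pseudocount of 1, a stricter filter and quantile normalization each gave 1 called gene (1 lower), while fitting only the arrays compared, and leaving out the arrays lettered A, gave 0 (0 lower). Leaving out 1 array gave 1 to 3, with 0 to 1 higher and 1 to 2 lower. For the difference of the time steps no filter gave 319 (155 higher, 164 lower), the second brightest probe set 100 (56 and 44) and leaving out the arrays lettered A 259 (123 and 136). Leaving out 1 array gave 323 to 536, with 153 to 287 higher and 169 to 249 lower. Apart from fewer genes or arrays tested, the causes were not tested.

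Nothing in the labels ties a letter to a culture or a day, and the main test left the letters out. The arrays nevertheless varied by letter. After group means were taken off, arrays of different groups correlated at a median of 0.414 with the same letter and -0.174 with different letters. For GATA1-labelled arrays at 18 h and 42 h it was 0.567 for letter A, 0.051 for B and 0.612 for C. Of the 12 arrays 11 correlated best with an array of their own letter. With the letter as a replicate block, 2315 genes were called in GATA1-labelled cells (1082 higher, 1233 lower; 1546 among the 1574), 41 in vector-labelled cells (4 and 37), and 846 for the difference (402 and 444).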

Other observations

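Genes that rose most did not rise evenly on the 3 arrays of a time. Among the 118 genes that rose at least 2-fold, array A was the highest of the 42 h arrays for 60, array C for 44 and array B for 14. At 18 h array A was the highest for 76 of the same genes, C for 26 and B for 16. Among the 205 genes that fell at least 2-fold, array A was the highest at 42 h for 88 and array C the highest at 18 h for 96. The 42 h array A also had the actin control ratio of 0.80 and the weakest Gapdh control ratio, -0.11 against -0.50 to -0.26 on the other arrays; the part of RNA quality in these counts was not tested.

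Across the 10759 tested genes the time steps of GATA1-labelled and vector-labelled cells, which share no array, had a correlation of 0.24, given as a description with no p. Of the 1574 genes called in GATA1-labelled cells 3 changed by more than 1 log2 unit in vector-labelled cells.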
